A study of Mus musculus with 12 samples.

Results

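The genes of versican and hyaluronan were followed in inguinal white adipose tissue (iWAT) of mice with AAV-Notum or AAV-GFP. They were Vcan (versican), the hyaluronan synthases Has1, Has2 and Has3, the hyaluronidases Hyal1 and Hyal2, and the hyaluronan-binding proteins Tnfaip6 and Cd44. Members were taken by gene symbol from the table of reads per gene, which gave 8 genes of the 54134 listed, each symbol with 1 gene ID. Of the 8, 7 had enough reads to enter the test across all genes, and Has1 did not.

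Hyaluronan is a very long unsulfated sugar polymer that synthases at the plasma membrane spin out directly into the space around the cell. Versican is a large proteoglycan whose chondroitin sulfate chains are built on a core protein that holds hyaluronan at one end, so that both form a hydrated, loose matrix together. Hyaluronidases cut the polymer, TSG-6 (the product of Tnfaip6) carries heavy chains of inter-alpha-trypsin inhibitor onto it, and CD44 is its main receptor on leukocytes and many other cells. In fat, this matrix surrounds adipocytes and stromal cells.

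Male C57BL/6J mice on a chow diet were infected through the tail vein, at 8 weeks of age, with adeno-associated virus that makes GFP (6 mice, AAV-GFP) or mouse Notum (6 mice, AAV-Notum). Both vectors act through the thyroxine binding globulin promoter, which is active in hepatocytes. NOTUM is a secreted enzyme that removes the lipid from Wnt proteins. The fat was collected 4 weeks after infection, after a 4 h fast, and 1 library per mouse was made from total RNA. The controls thus carry virus too, and mice without virus were not analysed here.

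For 6 of the 8 genes a RefSeq promoter sequence (GRCm38.p6) was at hand, from 250 bases before to 50 after the start site. For Has2 and Has3 none was at hand. Vcan is shown because it had the smallest p of the members in the comparison of the groups, and Tnfaip6 and Hyal1 because they were the members with a match to a searched motif. The motifs were the TCF/LEF core of Wnt target genes (CTTTGA or CTTTGT), the AP-1 site (TGANTCA) and the TATA box (TATAAA), each sought on both strands. Capitals mark the matches. The Vcan window is chr13:89742463-89742762 on the minus strand, that of Tnfaip6 is chr2:52037863-52038162 on the plus strand, and that of Hyal1 is chr9:107576700-107576999 on the plus strand.
Vcan: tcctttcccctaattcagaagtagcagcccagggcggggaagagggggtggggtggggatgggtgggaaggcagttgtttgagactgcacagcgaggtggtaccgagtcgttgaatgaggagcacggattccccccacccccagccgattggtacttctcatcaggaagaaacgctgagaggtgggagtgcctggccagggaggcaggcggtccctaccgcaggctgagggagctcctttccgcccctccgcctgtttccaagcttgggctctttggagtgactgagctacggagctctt
Tnfaip6: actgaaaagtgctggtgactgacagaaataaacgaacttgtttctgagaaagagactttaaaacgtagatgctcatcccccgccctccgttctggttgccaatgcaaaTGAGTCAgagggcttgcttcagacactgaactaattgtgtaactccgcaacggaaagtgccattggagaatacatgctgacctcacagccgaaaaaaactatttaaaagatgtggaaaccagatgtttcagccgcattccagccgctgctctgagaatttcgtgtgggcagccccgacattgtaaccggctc
Hyal1: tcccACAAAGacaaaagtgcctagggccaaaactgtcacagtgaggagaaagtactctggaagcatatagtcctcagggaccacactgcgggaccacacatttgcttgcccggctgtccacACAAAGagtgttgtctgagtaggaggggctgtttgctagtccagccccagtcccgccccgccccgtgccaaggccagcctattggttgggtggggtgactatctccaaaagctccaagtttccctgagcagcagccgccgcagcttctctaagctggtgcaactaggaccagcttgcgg
In Tnfaip6 the 1 match was an AP-1 sequence that begins 142 bases before the start site. In Hyal1 there were 2 TCF/LEF matches on the opposite strand, which begin 246 and 129 bases before the start site. In Vcan, Cd44, Has1 and Hyal2 none of the 3 motifs was found in this window. Of the 32851 promoters of this length, 31.2% hold the TCF/LEF core, 7.81% the AP-1 motif and 13.6% the TATA box, so that a match is a description of the sequence and not a bound site.

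Reads on genes numbered 15266635 to 21618860 per AAV-GFP library and 14711113 to 17838229 per AAV-Notum library, which overlap (exact permutation p of the difference of means 0.279, two-sided). All 8 adipocyte markers were detected, with Adipoq between 2191 and 5213 CPM (reads scaled to the library size, with the TMM factors of edgeR). Notum itself had 1 to 17 reads in the fat of AAV-GFP mice, 433 and 560 reads in mice AAV-Notum-2041 and AAV-Notum-2032, and 8 to 16 reads in the other 4 AAV-Notum mice. The mean level of 6 hepatocyte markers was highest among AAV-Notum mice in the same 2, at 5.52 and 3.28 log2 CPM, and the source of these Notum reads was not tested. As the promoter is one of liver, Notum reads in fat do not check the labels. A pair of control mice stood apart in 12 markers of lymphoid cells, with a mean level of 0.06 log2 CPM in AAV-GFP-2011 and of -0.59 in AAV-GFP-2014. That level was 3.86 in AAV-GFP-2012, and the other 9 mice had 5.23 to 7.27. RNA integrity numbers were 5.7 to 7.6 for AAV-GFP and 6.9 to 7.4 for AAV-Notum libraries. RNA was isolated 2 days after collection in 11 mice and 22 days after it in AAV-GFP-2012. The fat is a mixture of cells, and fewer cells of a type cannot be told apart from less RNA per cell.

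Per kilobase of exon, the members spanned a wide range of levels. In AAV-GFP mice the mean RPKM (CPM divided by the exon length in kilobases) was 10.4 ± 1.53 for Hyal2, 6.75 ± 4.76 for Cd44, 4.21 ± 0.660 for Hyal1 and 1.88 ± 0.658 for Tnfaip6 (SD, n = 6). Below these stood Vcan at 0.895 ± 0.214, Has2 at 0.537 ± 0.248, Has3 at 0.178 ± 0.0386 and Has1 at 0.0368 RPKM. In both tables Hyal1 and Hyal2, which cut hyaluronan, stood by group means above the 3 synthases. Not every gene for hyaluronan degradation did so, since Cemip had 0.109 RPKM in AAV-GFP mice and Hyal4, Hyal5 and Spam1 had 0 reads. In the count table, the steps from Hyal1 to Tnfaip6, Tnfaip6 to Vcan, Has2 to Has3 and Has3 to Has1 held in 6 of 6 mice of each group. The place of Has3 depends on the table, since the authors' normalized table rests on other counts of the reads. From the reads behind that table, Has3 was at 0.585 ± 0.194 and Has2 at 0.537 ± 0.235 RPKM in AAV-GFP mice (SD, n = 6), and Has1 was at 0.129 RPKM. There Has2 exceeded Has3 in 1 of 6 AAV-GFP and 3 of 6 AAV-Notum mice, so that these 2 synthases did not separate, while Has3 stood above Has1 in 6 of 6 mice of each group. Hyal2 and Cd44 were neighbours that did not separate, since Hyal2 was the higher in 4 of 6 AAV-GFP and 3 of 6 AAV-Notum mice. Cd44 exceeded Hyal1 in 3 of 6 AAV-GFP and 5 of 6 AAV-Notum mice. Vcan exceeded Has2 in 5 of 6 AAV-GFP mice but in 3 of 6 AAV-Notum mice, where their mean RPKM were 0.518 ± 0.160 and 0.514 ± 0.115 (SD, n = 6).

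**Figure D1:**
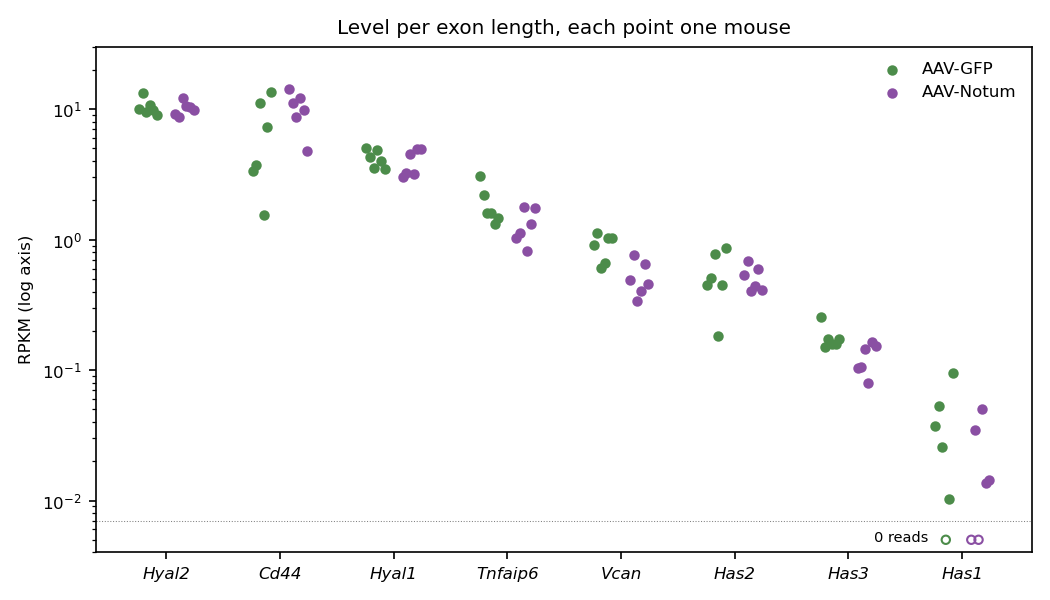
Level of the 8 genes in RPKM (log axis), ordered by the AAV-GFP mean, with 1 point per mouse, AAV-GFP in green and AAV-Notum in purple. Open points below the dotted line are mice with 0 reads. Hyal2 is at the top and Has1 at the bottom, and the AAV-Notum points of Vcan reach down to those of Has2.

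The first question was whether the message of the versican core protein differed between AAV-Notum and AAV-GFP mice. Vcan (ENSMUSG00000021614) lies on chromosome 13 of GRCm38, from 89655312 to 89742509 on the minus strand. Its level in CPM was 13.2 in AAV-GFP-2011, 16.2 in AAV-GFP-2012, 8.74 in AAV-GFP-2013, 9.58 in AAV-GFP-2014, 14.9 in AAV-GFP-2021 and 14.9 in AAV-GFP-2022. With Notum it was 7.05 in AAV-Notum-2031, 11.0 in AAV-Notum-2032, 4.90 in AAV-Notum-2033, 5.87 in AAV-Notum-2034, 9.46 in AAV-Notum-2041 and 6.66 in AAV-Notum-2042 CPM. No AAV-Notum mouse reached the mean of the controls, and 4 of the 6 stood below the lowest control. Mice AAV-Notum-2032 and AAV-Notum-2041 overlapped with AAV-GFP-2013 and AAV-GFP-2014. The group means were 12.9 ± 3.09 CPM in AAV-GFP and 7.49 ± 2.31 CPM in AAV-Notum (SD, n = 6), a 1.72-fold lower level.

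For Vcan, edgeR's quasi-likelihood test gave a log2 fold change of -0.79 (standard error 0.22, 95% interval -1.26 to -0.31), with an unadjusted p of 0.00371 and an adjusted p of 0.166 over the 15585 genes tested. The exact permutation test of log2 CPM gave p = 0.0108, where the smallest p that 6 mice against 6 allow is 0.00216. For this gene alone the difference of means thus had a p under 0.05 in both tests, while mice of the groups overlapped. The difference did not pass the threshold of 0.05 after adjustment over all genes. By edgeR, 8 genes or 0.0513% of those tested were lower at that threshold and 0 were higher. With DESeq2 the log2 fold change of Vcan was -0.78 and its adjusted p was 0.0376, in a test that called 2.17% of 16431 genes lower. Over 23 alternatives the log2 fold change lay between -0.93 and -0.69 and the adjusted p between 0.0376 and 0.518.

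Some properties of the libraries moved beside Vcan. Without AAV-GFP-2012, the mouse with the later RNA isolation and the highest Vcan level, its log2 fold change was -0.71 (unadjusted p = 0.00976 in edgeR, adjusted p = 0.356). Without both mice poor in lymphoid transcripts it was -0.87 (adjusted p = 0.518 in edgeR), so the difference was as large without them. Of 8 markers of adipose fibroblasts and progenitors, 4 were lower in AAV-Notum mice at an unadjusted p under 0.05 and 0 were higher, where 9.54% of all genes were lower. The mean level of the list lay between 7.35 and 7.73 log2 CPM with AAV-Notum, inside the 7.07 to 8.09 log2 CPM of the control mice (difference -0.12, two-sided exact permutation p = 0.463), and Dpp4 and Ly6a had higher group means with Notum. Their summed level, most of it from Col3a1 and Col1a1, ran from 4099 to 6831 CPM with GFP and from 3425 to 4369.9 CPM in AAV-Notum mice, with no marker at 0, and their part in the Vcan difference was not tested.

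**Figure D2:**
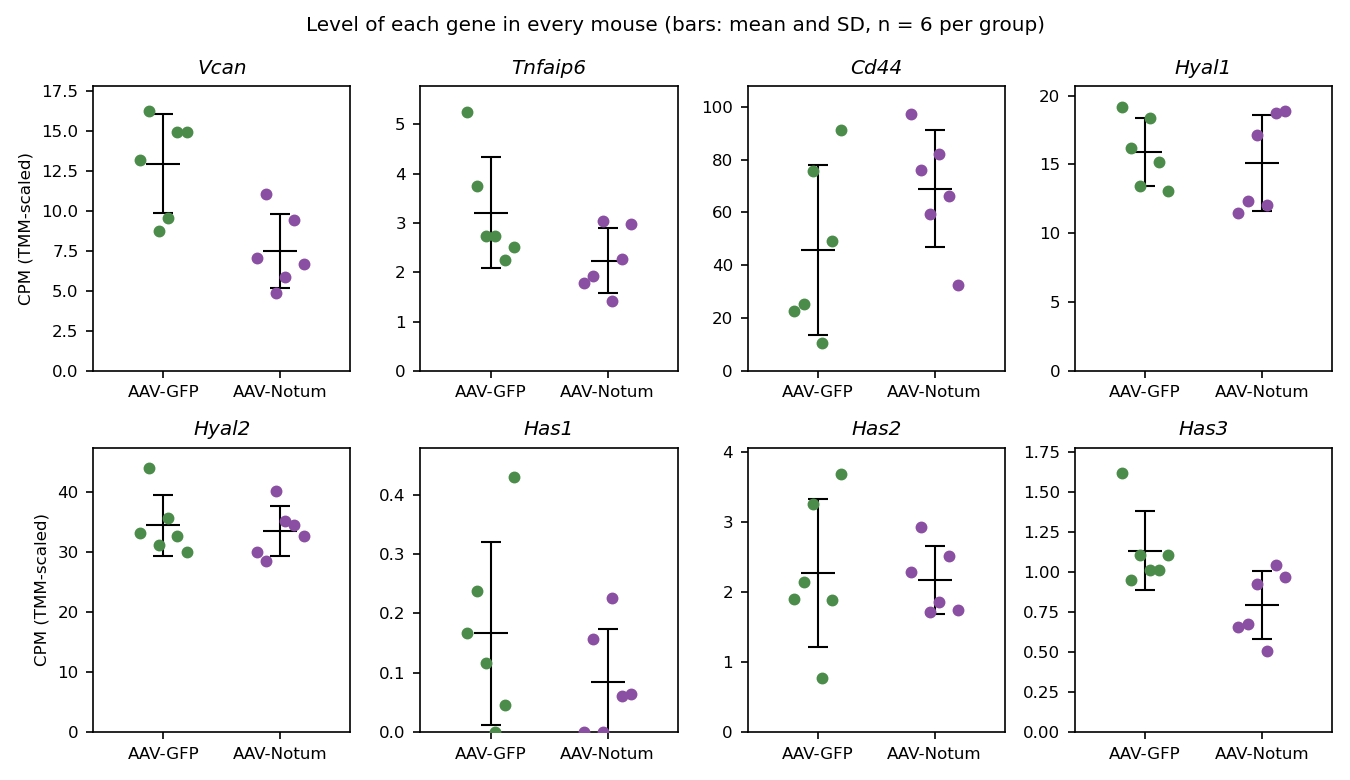
Level of each of the 8 genes in CPM (axis from 0, 1 panel per gene), with 1 point per mouse, and bars for the mean and SD of 6 mice per group. For Vcan 4 of the 6 AAV-Notum points lie below all AAV-GFP points, and for Cd44 the AAV-GFP points spread from 10.4 to 91.3 CPM.

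Among the hyaluronan synthases, Has3 had a lower mean in AAV-Notum mice, with an unadjusted p under 0.05 in edgeR that several alternatives did not keep. Has2 was close between the groups and Has1 had too few reads for a comparison. Has3 (ENSMUSG00000031910, chromosome 8, 106870242 to 106884566, plus strand) encodes a synthase of low message here. Has3 in CPM was 1.62 in AAV-GFP-2011, 0.952 in AAV-GFP-2012, 1.11 in AAV-GFP-2013, 1.01 in AAV-GFP-2014, 1.01 in AAV-GFP-2021 and 1.11 in AAV-GFP-2022. With Notum it was 0.659 in AAV-Notum-2031, 0.680 in AAV-Notum-2032, 0.927 in AAV-Notum-2033, 0.508 in AAV-Notum-2034, 1.04 in AAV-Notum-2041 and 0.969 in AAV-Notum-2042 CPM. Mouse AAV-GFP-2011 was alone at the top, the 6 mice with Notum lay under the control mean, and 4 of the 6 lay under each control mouse.

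The mean of Has3 was 1.14 ± 0.246 CPM in AAV-GFP and 0.798 ± 0.211 CPM in AAV-Notum (SD, n = 6). Its log2 fold change in edgeR was -0.51 (standard error 0.22, 95% interval -0.99 to -0.04, unadjusted p = 0.0358, adjusted p = 0.324), and the exact permutation test gave p = 0.0195. These values rest on 9 to 29 reads per mouse, for which counting alone gives a coefficient of variation of 24.4%, against 21.7% and 26.5% observed in the groups. Without AAV-GFP-2011 the log2 fold change was -0.38 (unadjusted p = 0.0938 in edgeR). The unadjusted p of Has3 was 0.0614 with DESeq2, 0.0703 in edgeR with genes of at least 1 read kept, and 0.0945 in edgeR with the RNA integrity covariate, and over all alternatives it lay between 0.0227 and 0.386. The authors' normalized table rests on other counts of the same mice, 42 to 97 reads of Has3 per AAV-GFP mouse and 47 to 59 per AAV-Notum mouse, or 3.52 times as many in all, and there the log2 fold change was -0.23 (unadjusted p = 0.282 in edgeR). Has3 shares 352 exonic bases with Chtf8 on the opposite strand, a gene with 16500 reads in all mice, and it is not stated whether the counting used strand.

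Has2 (ENSMUSG00000022367, chromosome 15, 56665627 to 56694539, minus strand), the synthase of long hyaluronan in connective tissue, had 0.773 to 3.69 CPM in AAV-GFP mice (median 2.02) and 1.72 to 2.93 CPM in AAV-Notum mice (median 2.07). The AAV-Notum mice lay inside the AAV-GFP range. The means were 2.28 ± 1.05 and 2.18 ± 0.486 CPM (SD, n = 6), and the log2 fold change was -0.06 (95% interval -0.74 to 0.61, adjusted p = 0.926 in edgeR). That interval is wide, with 13 to 60 reads per mouse, and the sign turned in 4 of 23 alternatives. The lowest value of Has2, 0.773 CPM, was that of AAV-GFP-2014, and the highest were 3.69 CPM in AAV-GFP-2022 and 3.26 CPM in AAV-GFP-2013.

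Has1 (ENSMUSG00000003665, chromosome 17, 17843323 to 17855205, minus strand) had 26 reads in all, 17 in AAV-GFP and 9 in AAV-Notum mice, and between 0 and 7 per mouse. At least 1 read was found in 9 of 12 mice. The exact permutation test gave p = 0.342, and a difference was not detectable at this depth. In the authors' normalized table the recovered reads of Has1 were 2 to 18 per mouse and 94 in all. For the 6 members other than Has1 and Has3, the totals in the normalized table were 0.996 to 1.01 times those in the table of reads.

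For both hyaluronidases the groups overlapped broadly. Hyal2 (ENSMUSG00000010047, chromosome 9, 107567945 to 107572779, plus strand), which cuts large hyaluronan at the cell surface, had up to 43.9 CPM in AAV-GFP (lowest 29.99, median 32.9) and 28.5 to 40.2 CPM in AAV-Notum mice (median 33.5). It was the steadiest member, with coefficients of variation of 14.6% and 12.3%. Its means were 34.4 ± 5.04 and 33.5 ± 4.13 CPM (SD, n = 6), with a log2 fold change of -0.04 and a 95% interval from -0.28 to 0.20 (adjusted p = 0.850 in edgeR).

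Hyal1 (ENSMUSG00000010051, chromosome 9, 107576927 to 107581710, plus strand), the lysosomal hyaluronidase, is the neighbour of Hyal2 on the same strand. Its level was 13.1 to 19.1 CPM in AAV-GFP (median 15.7) and 11.5 to 18.9 CPM in AAV-Notum mice (median 14.7). Mice AAV-Notum-2031, AAV-Notum-2032 and AAV-Notum-2034 had 11.5, 12.3 and 12.1 CPM, and AAV-Notum-2033, AAV-Notum-2041 and AAV-Notum-2042 had 17.1, 18.7 and 18.9 CPM, so that no mouse lay near the group mean of 15.1 ± 3.51 CPM (SD, n = 6). The AAV-GFP mean was 15.9 ± 2.49 CPM, and the log2 fold change was -0.08 (95% interval -0.42 to 0.27, adjusted p = 0.803 in edgeR). Hyal1 shares 1920 exonic bases with Naa80 and 159 with Hyal3, both on its strand, and the counting rule for shared bases is not stated.

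Of the hyaluronan-binding proteins, Tnfaip6 stood lower and Cd44 higher in AAV-Notum mice, neither past the threshold. Tnfaip6 (ENSMUSG00000053475, chromosome 2, 52038009 to 52056686, plus strand) encodes TSG-6. Its level in CPM was 5.26 in AAV-GFP-2011, 3.75 in AAV-GFP-2012, 2.74 in AAV-GFP-2013, 2.74 in AAV-GFP-2014, 2.26 in AAV-GFP-2021 and 2.52 in AAV-GFP-2022. With Notum it was 1.78 in AAV-Notum-2031, 1.93 in AAV-Notum-2032, 3.04 in AAV-Notum-2033, 1.41 in AAV-Notum-2034, 2.27 in AAV-Notum-2041 and 2.97 in AAV-Notum-2042 CPM. Mouse AAV-GFP-2011 was again the highest, no mouse with Notum reached the control mean, and 3 of these 6 lay under each control mouse. The means were 3.21 ± 1.12 and 2.24 ± 0.660 CPM (SD, n = 6).

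The log2 fold change of Tnfaip6 was -0.52 (standard error 0.26, 95% interval -1.08 to 0.03, unadjusted p = 0.0618, adjusted p = 0.367 in edgeR), with p = 0.0779 in the exact permutation test and an unadjusted p of 0.0495 with DESeq2 (adjusted p = 0.309). Without AAV-GFP-2011, which also had the lowest RNA integrity number, it was -0.33 (unadjusted p = 0.182 in edgeR). When the fit took the RNA integrity number as covariate, it was -0.34 (unadjusted p = 0.200 in edgeR), and with the lymphoid level as covariate it was -0.22 (unadjusted p = 0.391 in edgeR).

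Cd44 (ENSMUSG00000005087, chromosome 2, 102811141 to 102901665, minus strand) varied the most among the 7 members tested. Its level in CPM was 22.6 in AAV-GFP-2011, 25.2 in AAV-GFP-2012, 75.9 in AAV-GFP-2013, 10.4 in AAV-GFP-2014, 49.1 in AAV-GFP-2021 and 91.3 in AAV-GFP-2022. With Notum it was 97.4 in AAV-Notum-2031, 76.2 in AAV-Notum-2032, 59.5 in AAV-Notum-2033, 82.1 in AAV-Notum-2034, 66.3 in AAV-Notum-2041 and 32.6 in AAV-Notum-2042 CPM. The 3 lowest values were those of AAV-GFP-2014, AAV-GFP-2011 and AAV-GFP-2012, which were also the 3 mice of lowest lymphoid level. The coefficient of variation was 70.5% in AAV-GFP mice, against 3.14% from counting alone, and 32.1% in AAV-Notum mice.

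The means of Cd44 were 45.7 ± 32.3 and 69.0 ± 22.1 CPM (SD, n = 6), with a log2 fold change of 0.59 (standard error 0.46, 95% interval -0.40 to 1.59, adjusted p = 0.507 in edgeR) and an exact permutation p of 0.119. The value moved with the lymphoid markers. Without both mice poor in lymphoid transcripts it was 0.20 (unadjusted p = 0.598 in edgeR), and with the lymphoid level as a covariate it was -0.05. Without AAV-GFP-2014 alone it was 0.39, and without AAV-GFP-2022 it was 0.91 (unadjusted p = 0.0649 in edgeR).

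All 12 lymphoid markers were detected. Their summed level ran from 7.44 to 1533 CPM with GFP and from 499 to 2115 CPM in AAV-Notum mice, with no marker at 0 in all mice (exact permutation p of the mean level 0.0887). The mice poor in lymphoid transcripts form a cluster of their own, so relations to the lymphoid level were computed over the other 10 mice. There log2 CPM of Cd44 followed the lymphoid level with Pearson's r = 0.95 and Spearman's rho = 0.92 (permutation p = 1.5e-04 and 5.5e-04), an adjusted p of 0.00105 over 7 relations. Without the 2 mice farthest from the median lymphoid level, r for Cd44 was 0.81. Tnfaip6 ran the other way, with r = -0.73 and rho = -0.66 (permutation p = 0.0130 and 0.0438, adjusted p = 0.0456), and r = -0.49 without the 2 farthest mice.

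The relation of Hyal2 to the lymphoid level was r = -0.71 and rho = -0.71 (permutation p = 0.0266 and 0.0264, adjusted p = 0.0620), and that of Hyal1 was r = -0.60 and rho = -0.81 (permutation p = 0.0520 and 0.00758, adjusted p = 0.0910). For Vcan r was -0.31 and rho -0.14 (permutation p = 0.396 and 0.707), for Has2 0.37 and 0.49 (permutation p = 0.303 and 0.154) and for Has3 -0.34 and -0.31 (permutation p = 0.320 and 0.386). In the edgeR fit with the lymphoid level as covariate, the log2 fold change of Vcan was -0.88 (unadjusted p = 0.00395), that of Has3 -0.38 (unadjusted p = 0.142) and that of Has2 -0.46 (unadjusted p = 0.0892). That fit keeps all 12 mice. Both mice poor in lymphoid transcripts are AAV-GFP, so the covariate is partly tied to the group. The same limit holds for the values of Tnfaip6 and Cd44 with this covariate.

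Other cell types moved with the members as well. The same 10 mice were used, a choice made on the lymphoid level and not on the other lists. Over them and all 13 marker lists, which makes 91 relations, Cd44 went down as the adipocyte level went up, with r = -0.90 and rho = -0.94 (adjusted permutation p = 0.00682 and 0.0250). Its relation to blood endothelium was r = -0.94 and rho = -0.88 (adjusted permutation p = 0.0100 and 0.0409), and that to the lymphoid level had an adjusted p of 0.00682 in this larger family. These 3 relations of Cd44 passed the threshold on both measures, while that of Tnfaip6 to the lymphoid level did not (adjusted p = 0.119 for r and 0.174 for rho). For Tnfaip6 and skeletal muscle markers r was 0.80 and rho 0.84 (adjusted permutation p = 0.0724 and 0.0497), and for Tnfaip6 and blood endothelium r was 0.79 and rho 0.84 (adjusted permutation p = 0.0724 and 0.0497). Hyal1 had r = 0.84 with the adipocyte and -0.80 with the macrophage level (adjusted permutation p = 0.0724 for both), and rho = 0.77 and -0.87 (adjusted permutation p = 0.115 and 0.0409). With blood endothelium Hyal1 had r = 0.68 and rho = 0.88 (adjusted permutation p = 0.135 and 0.0409), and r = 0.91 without the 2 farthest mice. Hyal2 had r = 0.76 and rho = 0.71 with blood endothelium (adjusted permutation p = 0.128 and 0.152). For Vcan the highest was adipose fibroblasts and progenitors, with r = 0.71 and rho = 0.76 (adjusted permutation p = 0.128 and 0.115). Over all 12 mice r with that list was 0.51, and the highest for Vcan was 0.55 with smooth muscle and pericytes. The strongest of Has2 over these 10 mice was that to hepatocyte markers, with r = 0.76 and rho = 0.79 (adjusted permutation p = 0.112 and 0.0852). Over all 12 mice this r was 0.14, and the largest of Has2 was -0.75 with the adipocyte level. The part of each cell type in the members' levels was not tested.

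**Figure D3:**
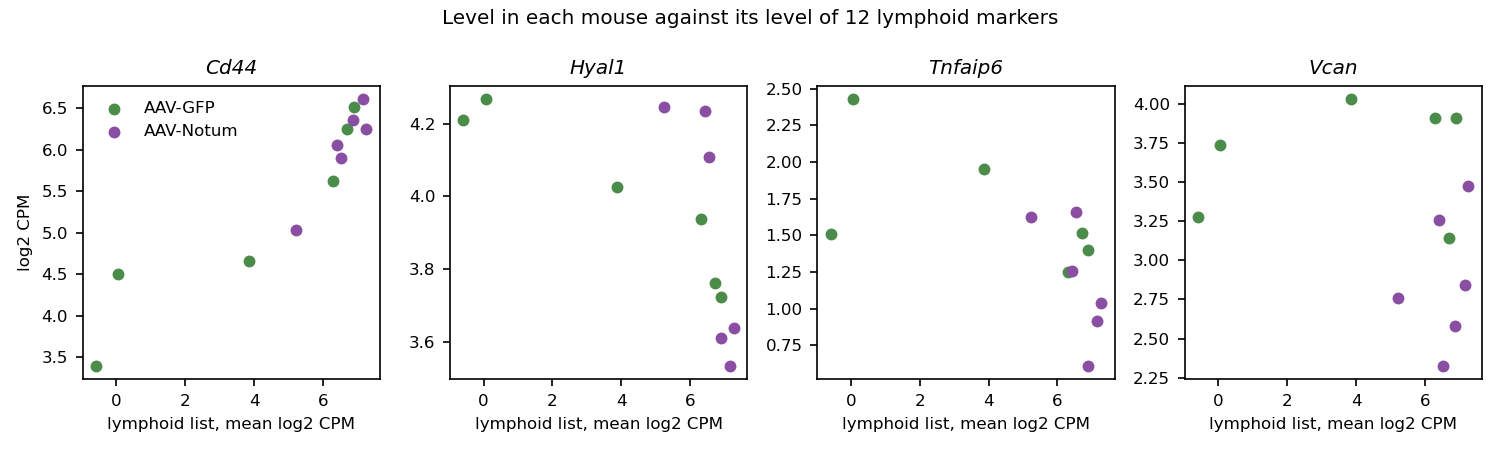
Level of Cd44, Hyal1, Tnfaip6 and Vcan (log2 CPM, y axes do not start at 0) against the mean log2 CPM of 12 lymphoid markers, 1 point per mouse, AAV-GFP in green and AAV-Notum in purple. The points at the left are AAV-GFP-2014 and AAV-GFP-2011. Cd44 follows the marker level (r = 0.95 over the other 10 mice), and for Vcan r is -0.31 over the same 10 mice.

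Side by side, 6 of the 7 members tested were lower in AAV-Notum mice and Cd44 was higher, while over all genes tested the median log2 fold change was 0.01 and 48.8% were lower. Of these 6, Has2 (-0.06), Hyal1 (-0.08) and Hyal2 (-0.04) lay near 0 and changed sign under some alternatives. At an unadjusted threshold of 0.05 in edgeR, Vcan and Has3 were lower and 0 members were higher, against 9.54% of all genes lower and 4.64% higher. After adjustment 0 members passed by edgeR and 1, Vcan, by DESeq2. No member had groups without overlap, where over all genes 0.667% had every AAV-Notum mouse below and 0.404% every AAV-Notum mouse above the AAV-GFP mice.

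**Figure D4:**
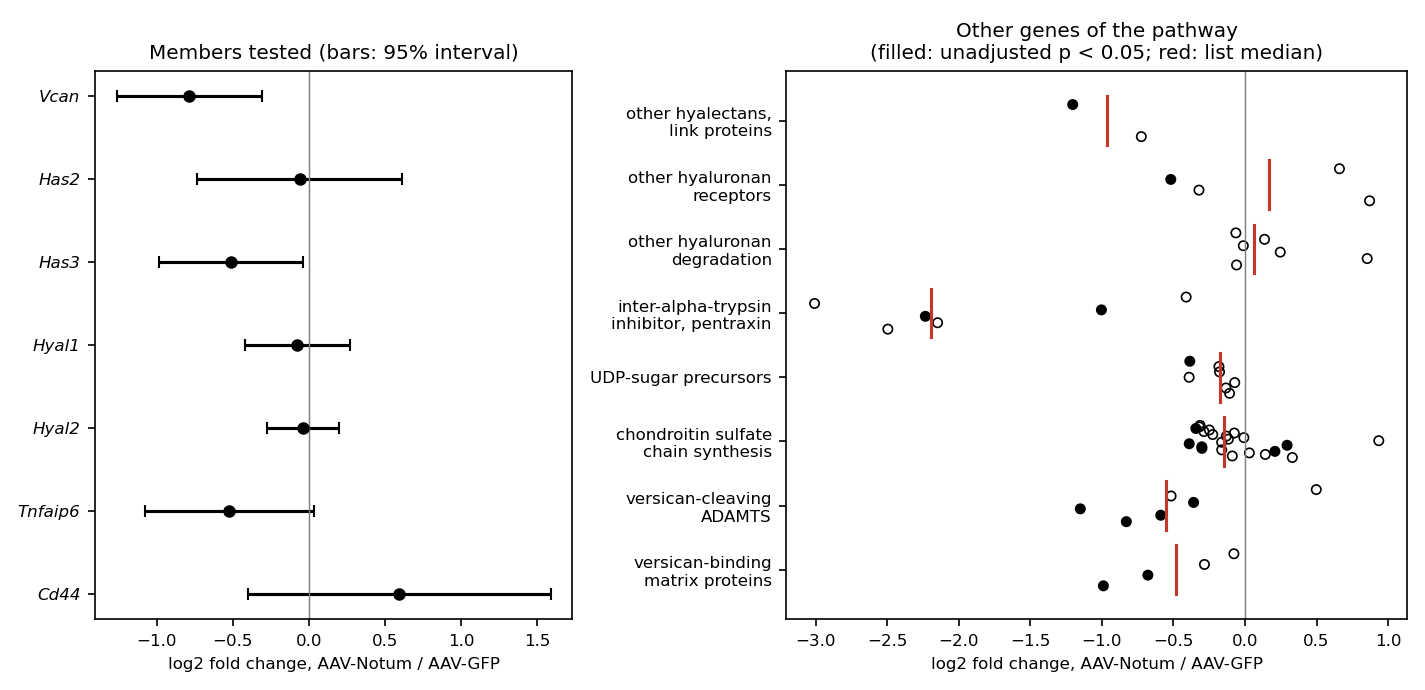
Log2 fold change of AAV-Notum over AAV-GFP in edgeR. Left, the 7 members tested with 95% intervals, of which those of Vcan (-1.26 to -0.31) and Has3 (-0.99 to -0.04) lie below 0. Right, the other genes of the pathway by list, where filled points have an unadjusted p under 0.05 and red lines are the list medians.

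The other genes of the pathway were taken from 8 lists by textbook role. Of 69 genes found, 57 were tested, of which 45 were lower and 12 higher with Notum. Their median log2 fold change was -0.22. Of them, 14 were lower and 2 higher at an unadjusted p under 0.05, against 9.54% and 4.64% of all genes tested. By edgeR 0 passed after adjustment, and 0 had groups without overlap. By DESeq2, 4 were lower at an adjusted p under 0.05, namely Hapln3 (0.0145), Itih5 (0.0104), Adamts1 (0.0288) and Fbln2 (0.0311), and 0 were higher, where DESeq2 called 2.17% of all genes lower.

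The proteases that cut the versican core stood mostly lower. Of 6 versican-cleaving ADAMTS genes, 5 were lower and 4 of these passed an unadjusted 0.05 in edgeR, as 9.54% of all genes did (Adamts1, Adamts4, Adamts5 and Adamts9), with a median log2 fold change over the list of -0.55. Adamts1 had 48.4 ± 16.4 CPM in AAV-GFP and 27.2 ± 6.54 CPM in AAV-Notum mice (SD, n = 6). In edgeR this is a log2 fold change of -0.83 with a standard error of 0.23 (adjusted p = 0.166). Adamts1 was 61.5, 64.5 and 63.2 CPM in AAV-GFP-2011, AAV-GFP-2012 and AAV-GFP-2014, the mice of lowest lymphoid level. It was 29.1 to 39.2 CPM in the other AAV-GFP mice and 20.2 to 38.8 CPM in AAV-Notum mice. Adamts5 had 210 ± 127 and 94.8 ± 20.9 CPM (SD, n = 6), with a log2 fold change of -1.15 (adjusted p = 0.219 in edgeR, exact permutation p = 0.0671). Its level ran from 62.8 to 390 CPM in AAV-GFP mice and from 72.8 to 131 CPM in AAV-Notum mice.

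Of the 4 tested genes for matrix proteins that bind versican, all 4 were lower, 2 of them past the unadjusted threshold, which 9.54% of all genes passed. Fbln2, a fibulin that binds the versican lectin domain, had 77.3 ± 23.3 CPM in AAV-GFP and 48.3 ± 5.81 CPM in AAV-Notum mice (SD, n = 6), a log2 fold change of -0.68 (adjusted p = 0.160 in edgeR). Fbln1 had 9.02 ± 3.26 and 4.55 ± 2.11 CPM (SD, n = 6) and a log2 fold change of -0.99 (adjusted p = 0.231 in edgeR). Fbn1 (fibrillin 1) and Tnc (tenascin C) were not past the unadjusted threshold.

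The link protein gene Hapln3, whose product clamps proteoglycans to hyaluronan, had 4.87, 3.21, 2.33, 4.34, 4.24 and 1.17 CPM in AAV-GFP mice and 1.13 to 1.97 CPM in AAV-Notum mice. Mouse AAV-GFP-2022 lay among the AAV-Notum mice and the other 5 AAV-GFP mice lay above them. The edgeR log2 fold change between the groups for Hapln3 was -1.20 (standard error 0.30, adjusted p = 0.142 in edgeR, exact permutation p = 0.0173). Aggrecan (Acan), brevican (Bcan), Hapln1, Hapln2 and Hapln4 had too few reads to be tested.

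The heavy chains of inter-alpha-trypsin inhibitor are what TSG-6 transfers onto hyaluronan. The 6 tested genes of the list with this inhibitor and pentraxin 3 were all lower, 2 of them past the unadjusted threshold (9.54% of all genes), and its median log2 fold change was -2.19. Itih5, the member of this family expressed in adipose tissue, had 265 to 789 CPM for AAV-GFP mice and 230 to 342 CPM for AAV-Notum mice. AAV-GFP-2022 and AAV-GFP-2013 lay within the AAV-Notum range and the other 4 AAV-GFP mice lay above it. For Itih5 edgeR gave a log2 fold change of -1.003 with a standard error of 0.25 (adjusted p = 0.140, exact permutation p = 0.0195). Itih2, Itih3, Itih4 and Ambp, which are made mainly by hepatocytes, had log2 fold changes from -2.15 to -3.01, of which that of Itih4 alone had an unadjusted p under 0.05. Mouse AAV-GFP-2013 held 55.1% to 66.4% of all reads of each of these 4 genes and 3788 CPM of the hepatocyte gene Alb. Without it, their values were -0.54 to -1.31, none with an unadjusted p under 0.05 in edgeR, and the median of the list was -0.96. The log2 fold change of Itih5 was then -1.11. The summed level of 6 hepatocyte markers ran from 45.1 to 4904 CPM with GFP and from 19.6 to 704 CPM in AAV-Notum mice, with no marker at 0 in all mice, and the part of hepatocyte RNA in these 4 values was not tested.

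Among other hyaluronan receptors, Stab1, a scavenger receptor that takes up hyaluronan, had 96.4 ± 20.4 CPM in AAV-GFP and 67.3 ± 10.7 CPM in AAV-Notum mice (SD, n = 6). Its log2 fold change was -0.52 (adjusted p = 0.168 in edgeR), while Lyve1 had -0.32, Stab2 0.66 and Hmmr 0.87, none of these 3 past the unadjusted threshold. Of 6 tested genes for hyaluronan degradation other than Hyal1 and Hyal2, 3 were lower and 3 higher, with 0 at an unadjusted p under 0.05 and a median log2 fold change of 0.06. The largest of them, 0.85 for Cemip (unadjusted p = 0.270 in edgeR), came with 1 read in AAV-GFP-2011 and 1 in AAV-GFP-2014, while the other 10 mice had 10 to 62. The mice with 1 read are those low in lymphoid transcripts.

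The enzymes that make the UDP-sugars for hyaluronan and chondroitin sulfate had log2 fold changes below 0 in 7 of 7 (median -0.18), of which 1 had an unadjusted p under 0.05 in edgeR, against 9.54% of all genes lower. That gene was Uap1, which makes UDP-N-acetylglucosamine, with 154 ± 30.2 and 118 ± 17.3 CPM (SD, n = 6) and a log2 fold change of -0.39 (adjusted p = 0.236 in edgeR). Of 22 tested genes of chondroitin sulfate chain synthesis, 16 were lower and 6 higher (median log2 fold change -0.15). At an unadjusted p under 0.05, Csgalnact2, Chpf and Slc35d1 were lower and B3gat3 and Chsy1 higher, 3 and 2 of 22 genes, where 9.54% of all genes were lower and 4.64% higher. Csgalnact2, which starts the chondroitin chain, had 30.9 ± 2.60 CPM in AAV-GFP and 25.1 ± 2.89 CPM in AAV-Notum mice (SD, n = 6), with a log2 fold change of -0.30 (adjusted p = 0.185 in edgeR, exact permutation p = 0.00433).

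Among the members themselves, 21 pairs were compared over the 12 mice. Has3 and Tnfaip6 had Pearson's r = 0.86 (permutation p = 0.00100, adjusted p = 0.0210) and rho = 0.52 (permutation p = 0.0907, adjusted p = 0.238). Without the 2 mice farthest from the median of Has3, AAV-Notum-2034 and AAV-GFP-2011, r was 0.58, and with 1 mouse left out it lay between 0.77 and 0.91. It was 0.72 within AAV-GFP and 0.88 within AAV-Notum mice. Hyal1 and Cd44 ran in opposite directions, with r = -0.73 (permutation p = 0.00701, adjusted p = 0.0411) and rho = -0.83 (permutation p = 0.00180, adjusted p = 0.0378). That relation was -0.92 within AAV-GFP and -0.79 within AAV-Notum mice, and -0.65 without the 2 farthest mice. Hyal1 and Tnfaip6 had r = 0.71 and rho = 0.75 (permutation p = 0.00782 and 0.00699, adjusted p = 0.0411 and 0.0734), and r = 0.53 without the 2 farthest mice, with 0.64 within AAV-GFP and 0.84 within AAV-Notum mice.

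Has2 and Cd44 had r = 0.78 and rho = 0.59 (permutation p = 0.00334 and 0.0458, adjusted p = 0.0351 and 0.160), and r was 0.45 without the 2 farthest mice. Over the 10 mice without those poor in lymphoid transcripts, r of this pair was 0.50. Within the groups r was 0.92 in AAV-GFP and 0.50 in AAV-Notum mice. No pair with Vcan passed the threshold, the largest being Vcan and Has3 with r = 0.49 and rho = 0.45 (permutation p = 0.110 and 0.140, adjusted p = 0.243 and 0.300). Within the groups that pair had r = -0.04 in AAV-GFP and 0.06 in AAV-Notum mice, while Vcan and Has2 had 0.26 and 0.93.

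The genes most like each member were sought among 14425 others with a mean of at least 1 CPM, by Pearson's r of log2 CPM over the 12 mice, as a description with no test. For Vcan these were Reck, a membrane-anchored inhibitor of matrix metalloproteinases (r = 0.93), Kcnq1 (0.88), Ifi207 (0.86), Ednrb, an endothelin receptor (0.85), and Kalrn (0.84). After the group means were removed these were 0.85, 0.73, 0.70, 0.69 and 0.58. For Has2 they were A630089N07Rik (0.94), Anxa3 (0.93) and Msr1, a macrophage scavenger receptor (0.91). For Has3, sought among 14426 genes, they were Pcdhga7 (0.89), Tnfaip6 (0.86) and Pclo (0.86).

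For Hyal1 the closest genes were Msantd3 (0.97), Oxnad1 (0.96) and Cpped1 (0.96), and for Hyal2 Gpatch2 (0.89), Irx3 (0.88) and Lrrc41 (0.87). For Tnfaip6 they were Sertad4 (0.93), Gm16984 (0.91) and Coro2b (0.91). For Cd44 they were Cd7 (0.996), Ttc39a (0.994) and Slamf7 (0.993), of which Cd7 and Slamf7 encode surface proteins of lymphocytes.

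**Figure D5:**
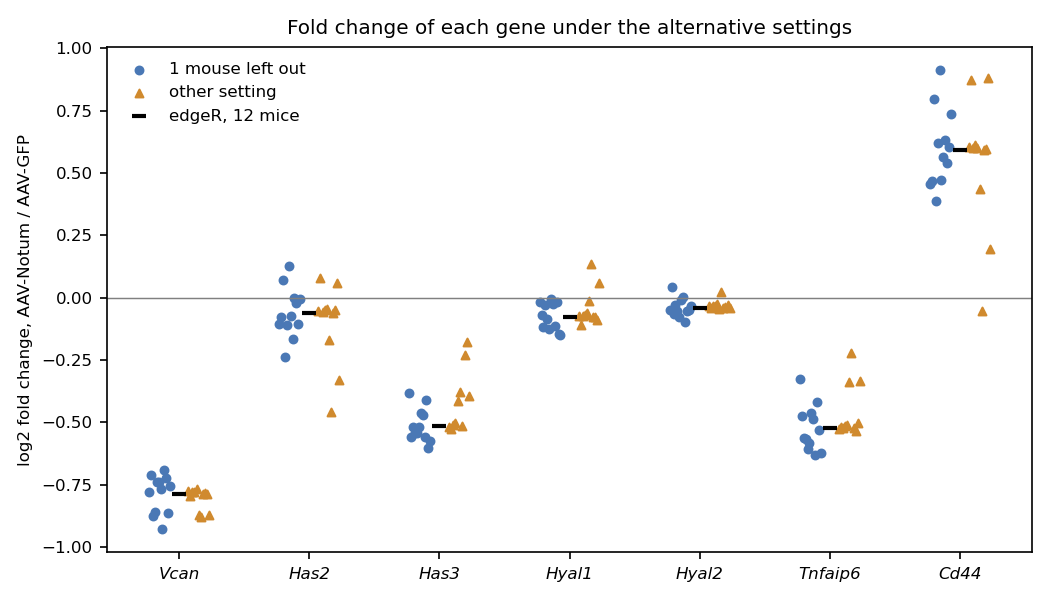
Log2 fold change of the 7 members tested (AAV-Notum over AAV-GFP) with edgeR on 12 mice (black bars), with 1 mouse left out (blue points) and under the other settings (orange triangles). Vcan stays between -0.93 and -0.69, while Has2 lies between -0.46 and 0.13 and Cd44 between -0.05 and 0.91.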

How the data were processed

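RNA-seq of iWAT from 12 mice (6 AAV-GFP and 6 AAV-Notum, 1 library each) was analysed. Per the submitters' processing notes, the authors aligned the reads with STAR 2.3.1 to mm10 and used DESeq2. The program and annotation that counted reads are not given in the sources used here. The authors deposited whole-number read counts per gene without normalization, and a second table of log2 values, which are log2 of reads over a size factor, plus 1. Undoing that scaling gave whole reads (within 0.05) for 100% of values. The count table was the main source and the log2 table an alternative.

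Genes that passed filterByExpr (at least 10 reads, and 15 in total) were TMM-normalized and fitted with glmQLFit in edgeR 4.0.16 (R 4.3.3), with two-sided quasi-likelihood tests and Benjamini-Hochberg adjustment over 15585 genes. Standard errors are the log2 fold change over the square root of F. Log2 CPM carry a prior count of 2. Exact permutation tests were two-sided on mean log2 CPM over the 924 assignments of mice. RPKM use exon lengths of GENCODE vM21 (GRCm38), which holds 53990 of the 54134 gene IDs. Correlations used seeded permutations. The fit was tested on simulated counts. No 2 mice of a group agreed within sampling noise (chi-square per degree of freedom 21.6 to 189 over 30 pairs).

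Alternatives were DESeq2 1.42.0, limma-voom and limma 3.58.1 on the log2 table, RLE size factors, other low-count filters, covariates, a robust fit, recovered reads, and mice left out. Levels from recovered reads, the inhibitor list without AAV-GFP-2013, relations to all marker lists, and that of Has3 and Tnfaip6 without each mouse were added after the data were seen. The members, gene lists and alternatives were chosen with earlier results of these data known. Named were the members, the gene of smallest p in each pathway list and the genes most like each member. Of the other pathway genes, those given with values or by name were chosen after their values were seen. Counting error is largest for Has1, Has2, Has3 and Tnfaip6. Figures were drawn with matplotlib 3.10.9.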

Additional observations from a re-analysis of the deposited data

Results flagged for a closer look

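Has3 in mouse AAV-GFP-2011 was 1.62 CPM, far from the 0.952 to 1.11 CPM of the other 5 AAV-GFP mice, with a gap to the nearest mouse of 0.769 of the whole range of the group against a critical value of 0.625 for 6 samples (Dixon's test). It was the 1 such value among 16 groups, the 8 genes in each of both treatments, where chance alone gives about 1 in 20. The value rests on 29 reads. The same mouse had the highest Tnfaip6 level, 5.26 CPM, and the lowest RNA integrity number, 5.7.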

How the results depend on the processing

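Of 160 log2 fold changes of members under the alternatives, 149 kept their direction and their side of the threshold, 10 changed sign and 1, Vcan, passed the threshold. Vcan with DESeq2 was -0.78 with an adjusted p of 0.0376, so that DESeq2 called 1 member lower where edgeR called 0, and in the pathway lists DESeq2 called 4 genes lower where edgeR called 0. With 1 mouse left out, Vcan lay between -0.93 and -0.69, and its unadjusted p over all alternatives lay between 8.8e-04 and 0.00980. The number of members lower at an unadjusted p under 0.05 was 2, and 1 with a filter of at least 1 read in all or at least 10 reads in every mouse, with either covariate (RNA integrity number, lymphoid level), on recovered reads, with limma on the log2 table, and without both mice poor in lymphoid transcripts. Under the filter of 10 reads in every mouse Has3, with 9 reads in AAV-Notum-2034, was not tested. DESeq2 also gave 2, but these were Vcan and Tnfaip6 (unadjusted p of 0.0495) and not Has3 (0.0614). With 1 mouse left out it was 1 to 3, the lowest value without AAV-GFP-2011, AAV-GFP-2013, AAV-Notum-2031, AAV-Notum-2032 or AAV-Notum-2034.

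Has2 turned to 0.0799 with limma-voom and 0.0597 with limma on the log2 table, and ranged from -0.24 to 0.13 with 1 mouse left out (0.0699 without AAV-GFP-2013, 0.13 without AAV-GFP-2022); on mean CPM its exact permutation p was 0.825. It was -0.46 with the lymphoid level as a covariate and -0.33 without both mice poor in lymphoid transcripts. That covariate moved Tnfaip6 to -0.22, and Hyal1 turned to 0.14 under it, Hyal2 to 0.0239 and Cd44 to -0.0539. Without both mice poor in lymphoid transcripts Hyal1 was 0.0573, and it was -0.15 to -0.01 with 1 mouse left out. Hyal2 was 0.0409 without AAV-GFP-2012 and 0.00165 without AAV-Notum-2032, in a range from -0.0991 to 0.0409. The cause was not tested. Without AAV-GFP-2022, edgeR called 146 of all genes lower and 12 higher, against 8 and 0 with all mice, and 0 members among them. No paired analysis was possible because the groups share no replicate numbers.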
